A study of Rattus norvegicus with 2 samples.

Results

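The 10 genes described here encode vasoactive peptides, their receptors and a peptide-forming enzyme: *Edn1*, *Ednra* and *Ednrb* of the endothelin system, *Adm*, *Calcrl* and *Ramp2* of the adrenomedullin system, *Apln* and *Aplnr* of the apelin system, and *Agtr1a* and *Ace* of the renin-angiotensin system. They were chosen by symbol, and all 10 were found among the 25399 genes of the count matrices. Their levels were read in single cardiac cells of neonatal Sprague-Dawley rats, 1 to 3 days old with males and females pooled, that had been dissociated with trypsin and enriched on Percoll for intrinsic cardiac adrenergic (ICA) cells, a catecholamine-making cell type of the heart. One culture received saline (control) and the other received LPS, the bacterial lipopolysaccharide that sets off innate immune signaling, at 1 µg/mL, each for 2 h. Each gave 1 droplet library of the 10X Genomics 3′ kind, so there were 2 libraries, 1 per condition, from pooled animals.

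With 1 library per condition there was no replicate check and no test was made. A level is the sum of a gene's unique molecular identifiers (UMIs, counted RNA molecules) over the cells of a cluster per 1000000 UMIs of that cluster (CPM), and levels of different genes are not compared. Intervals in brackets (95%) take in counting error alone, and any contrast of LPS with control also holds whatever else set the libraries apart. The control library held 11531 cells and 152624585 UMIs and the LPS library 12689 cells and 127580475 UMIs, with medians of 12479 and 9432 UMIs per cell, and they shared 194 cell barcodes. Because depth differed, the share of cells holding a UMI was taken from random draws of 3000 UMIs per cell (thinning), for which 79 LPS cells were too shallow. No doublet caller was run.

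Cells were grouped by the 11 clusters that the authors deposited. Clusters 0, 1 and 7 were named Fibroblast, cluster 3 ICA and Cardiomyocyte, clusters 4 and 5 Endothelial and cluster 6 Macrophages, and clusters 2, 8, 9 and 10 carried no cell type. Marker levels mostly followed these names. *Cdh5*, an endothelial cadherin, was at 461 CPM in control cells of cluster 4 and 228 CPM in cluster 5 against 13.8 CPM in cluster 2. *Cd68* was at 496 CPM in control cells of cluster 6. Not all markers did so: *Kdr*, also endothelial, was at 27.2 CPM in LPS cells of cluster 5 and at 39.0 CPM in cluster 3. The 8 fibroblast markers summed to 11634, 10118 and 11708 CPM in control cells of clusters 0, 1 and 7, but to 17272 CPM in cluster 9. *Dbh*, the noradrenaline-forming enzyme of ICA cells, was at 25.4 CPM in control cells of cluster 3, and *Th* had 0 UMIs there in both libraries. Cluster 2 was led by *Rgs5*, *Kcnj8* and *Abcc9*, 3 of the 7 pericyte markers, and is called pericyte-like. Of the other pericyte markers *Cspg4* was lower there than in cluster 3 (18.4 against 32.4 CPM in control) and *Mcam* lower than in cluster 4 (92.2 against 175 CPM), and the 4 smooth muscle markers, led by *Acta2* at 1317 CPM, also had their highest summed level in cluster 2 (2430 CPM in control and 2350 CPM in LPS), so that pericytes and smooth muscle cells are not told apart in it. *Ednra* and *Agtr1a* stood among the 100 leading genes of cluster 2, *Apln* and *Aplnr* among those of cluster 4 and *Ednrb* among those of cluster 10, so that their high level in these clusters is part of how the clusters are told apart and not a finding.

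Vascular tone is set by peptides that act on the wall of small vessels. Endothelin-1 and angiotensin II constrict mainly through receptors on smooth muscle and pericytes, whereas adrenomedullin and apelin act largely on endothelial receptors and relax vessels or limit leakage. In sepsis, blood vessels lose tone and respond poorly to constrictors, and plasma adrenomedullin is a known marker of severity.

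*Adm* and *Agtr1a*, at least 2-fold higher in several clusters, are shown with their promoters, next to *Edn1*, since it was the one with a match to a searched motif other than a TATA box. The windows are from RefSeq and span 250 bases before to 50 bases after the annotated start. Of the 10 genes, 8 were in the promoter table (*Ramp2* and *Aplnr* were not). Capitals mark matches, on either strand, to the AP-1 site TGANTCA, which 7.33% of all 33469 promoters in the table hold, to the hypoxia response core ACGTG (19.3%), to the NF-κB consensus (7.51%) or to the TATA box TATAAA (14.2%), the last of which was added after the windows had been seen.
*Edn1* promoter, GRCr8 chr17:22666638-22666937, minus strand: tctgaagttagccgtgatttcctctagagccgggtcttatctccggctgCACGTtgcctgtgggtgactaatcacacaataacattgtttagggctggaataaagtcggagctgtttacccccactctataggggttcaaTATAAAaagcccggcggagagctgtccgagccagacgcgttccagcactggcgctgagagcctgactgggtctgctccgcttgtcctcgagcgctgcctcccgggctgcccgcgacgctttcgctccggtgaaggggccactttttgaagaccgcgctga
*Adm* promoter, GRCr8 chr1:174179950-174180249, plus strand: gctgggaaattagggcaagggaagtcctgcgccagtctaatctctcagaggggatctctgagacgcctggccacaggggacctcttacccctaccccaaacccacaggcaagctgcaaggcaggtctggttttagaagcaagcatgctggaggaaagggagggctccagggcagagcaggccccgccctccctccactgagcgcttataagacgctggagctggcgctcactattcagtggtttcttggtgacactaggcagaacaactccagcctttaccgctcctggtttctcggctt
*Agtr1a* promoter, GRCr8 chr17:34435383-34435682, minus strand: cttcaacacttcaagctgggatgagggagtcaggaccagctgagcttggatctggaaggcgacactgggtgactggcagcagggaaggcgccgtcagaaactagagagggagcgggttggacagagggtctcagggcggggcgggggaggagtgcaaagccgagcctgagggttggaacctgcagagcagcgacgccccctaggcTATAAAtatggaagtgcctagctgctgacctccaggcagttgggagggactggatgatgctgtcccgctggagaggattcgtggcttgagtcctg
In the *Edn1* window ACGTG was found on the opposite strand, 201 bases before the start, with a TATA box 110 bases before it. *Agtr1a* had a TATA box 45 bases before its start and *Ace* had one on the opposite strand, 42 bases before its start. The *Adm* window held none of the 4 motifs, and none of the 8 windows matched the AP-1 or NF-κB letters, which says only that these letters are not in the windows.

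The plot of levels by cluster gives the 10 genes in each library.

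**Figure D1:**
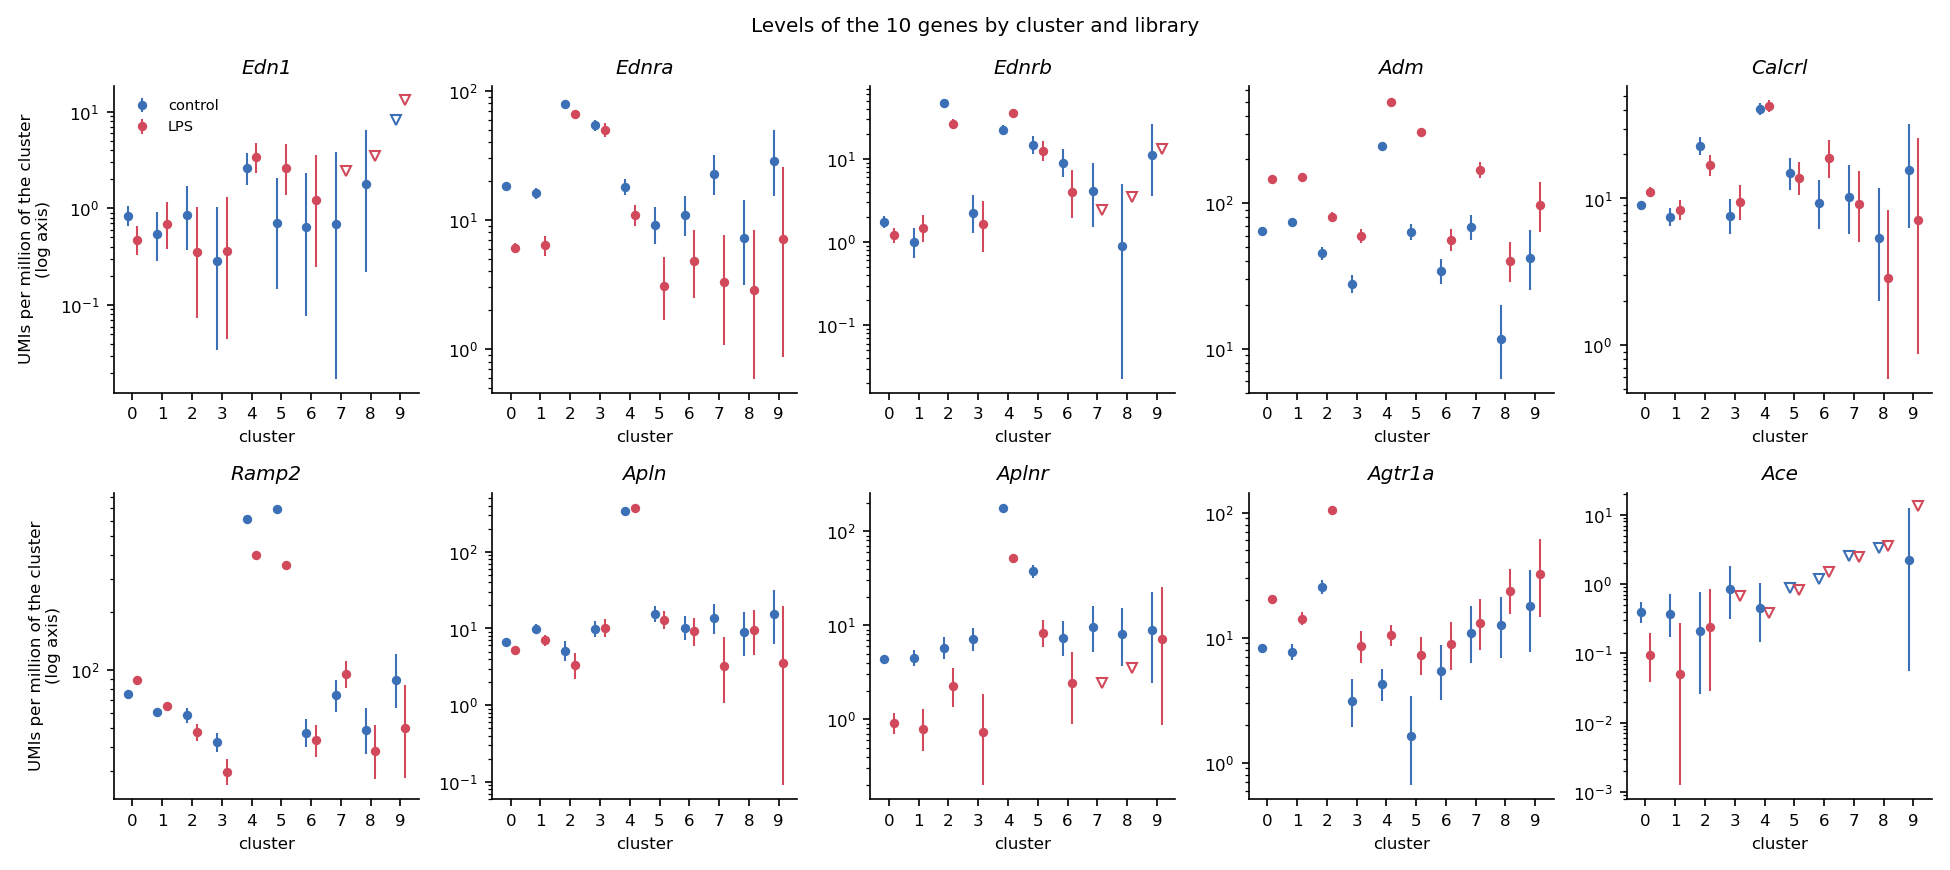
CPM (log axis, 1 panel per gene with its own range) by cluster 0 to 9 in the control (blue) and LPS (red) libraries. Bars are 95% exact Poisson intervals, and open triangles mark the upper limit where no UMI was counted. *Adm* is higher in LPS in every cluster shown, *Aplnr* in cluster 4 goes from 176 to 51.6 and *Agtr1a* in cluster 2 from 25.4 to 105.

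A gene was read in a cluster where it had 20 or more UMIs over both libraries, and it was counted as higher or lower where its ratio, with 0.5 UMI added to either sum, passed 2-fold. In cluster 4, 9 of the 10 genes could be read. *Adm* and *Agtr1a* were at least 2-fold higher in LPS and *Aplnr* was at least 2-fold lower, where 2.95% and 6.27% of 10942 genes were higher and lower. The median log2 ratio of the 9 genes was 0.14 and that of all genes -0.10. In cluster 5, *Adm* and *Agtr1a* were higher and *Ednra* and *Aplnr* lower, 2 and 2 of 8 read, against a background of 4.74% and 6.48%. In cluster 2, 8 genes were read, of which *Agtr1a* was higher and *Aplnr* lower, where 3.01% and 6.66% of all genes passed. In cluster 0, all 10 genes were read, with *Adm* and *Agtr1a* higher and *Ednra*, *Aplnr* and *Ace* lower, against 3.62% and 11.2% of all genes. In cluster 1, *Adm* was higher (3.37% of all genes) and *Ednra* and *Aplnr* were lower (7.34%). *Adm* and *Agtr1a* were also the higher genes in cluster 3 (2.2% of all genes) with *Aplnr* the lower one (3.08%). In the macrophages of cluster 6 the higher gene was *Calcrl* (4.7%) and the lower ones were *Ednra*, *Ednrb* and *Aplnr* (15.7%). In clusters 7, 8 and 9 *Adm* was higher (4.78%, 3.32% and 5.04% of all genes). *Ednra* and *Apln* were lower in cluster 7 (6.68%), and in clusters 8 and 9, where 4.07% and 4.73% of all genes were lower, 0 of the 4 and 2 genes read were. The map of log2 ratios sets these side by side.

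**Figure D2:**
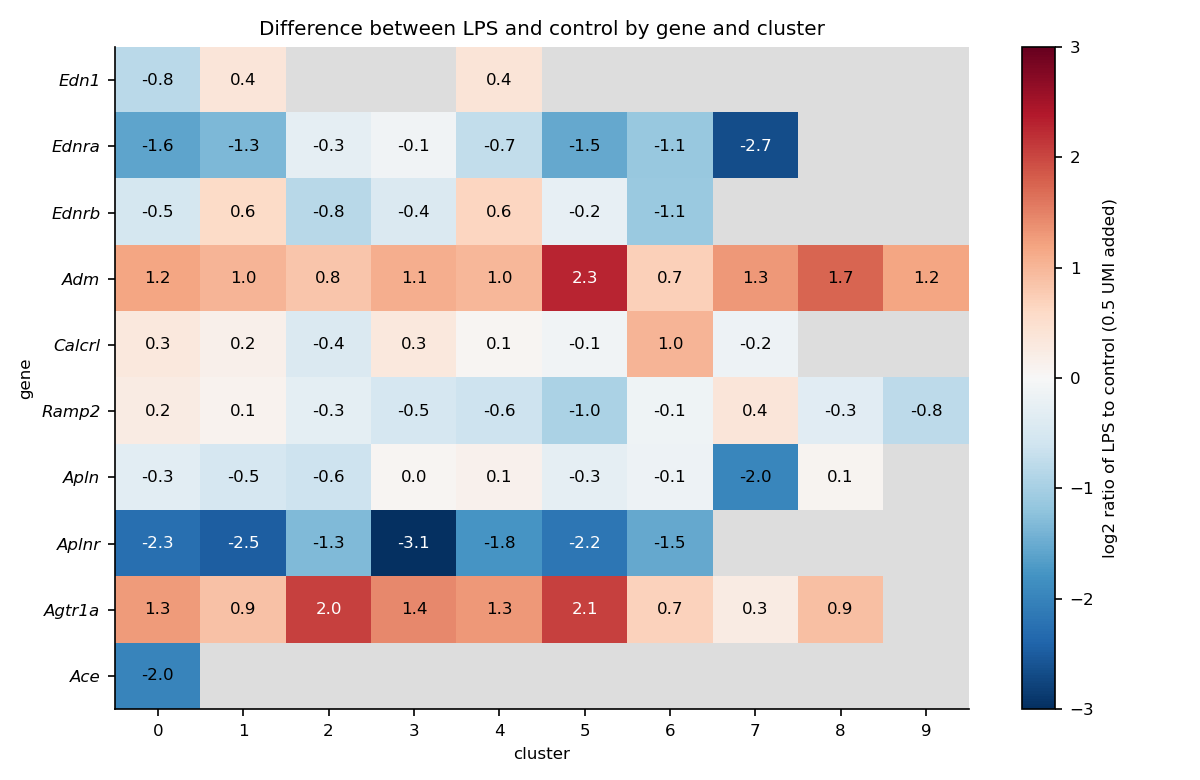
Log2 ratio of LPS to control (0.5 UMI added, color from -3 to 3) for the 10 genes (rows) in clusters 0 to 9 (columns); gray cells had fewer than 20 UMIs over both libraries. The *Adm* row is positive in all 10 clusters and the *Aplnr* row negative in the 7 clusters where it was read. *Edn1*, *Ednrb*, *Calcrl*, *Ramp2* and *Apln* change sign between clusters.

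*Edn1* (ENSRNOG00000014361) encodes the precursor of endothelin-1, a strong vasoconstrictor made by endothelium. It was scarce, with 136 UMIs in all control cells and 102 in all LPS cells. In cluster 4 it had 29 UMIs in control and 33 in LPS, levels of 2.61 CPM (1.75 to 3.74) and 3.39 CPM (2.33 to 4.76) and a ratio of 1.30 (0.766 to 2.22), so no difference was detectable at this depth. In cluster 5 it had 3 and 12 UMIs, or 0.706 and 2.64 CPM. Over both libraries the levels of these 2 endothelial clusters, 2.97 CPM (2.28 to 3.81) and 1.70 CPM (0.954 to 2.81), had overlapping intervals. The fibroblasts of cluster 0 held 55.9% of the control UMIs of *Edn1*, at 0.840 CPM, and were at 0.475 CPM in LPS, a ratio of 0.565 (0.367 to 0.854). That control level was 32.2% of the level in cluster 4, whereas 7 endothelial markers in cluster 0 were at 2.04% to 9.63% of theirs.

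*Ednra* (ENSRNOG00000012721) encodes the ETA receptor, which mediates constriction in smooth muscle and pericytes. In the pericyte-like cluster 2 it was at 79.2 CPM (73.6 to 85.1) in control and 66.0 CPM (60.6 to 71.7) in LPS, a ratio of 0.833 (0.744 to 0.931). Cluster 3, with the cardiomyocytes, came next at 54.0 and 49.99 CPM, a ratio of 0.926 (0.790 to 1.08). The level was thus a little lower in LPS in cluster 2, where 3879 of 10449 genes had a lower ratio, and no difference was detectable in cluster 3. In the fibroblasts *Ednra* was lower after LPS, with 18.2 CPM (17.3 to 19.1) in control and 6.09 CPM (5.54 to 6.68) in LPS in cluster 0, a control level 2.99 times the LPS level. The values were 16.1 and 6.36 CPM in cluster 1, and in cluster 7 they were 22.6 and 3.29 CPM, on 33 and 5 UMIs. In cluster 0 the control and LPS levels were 23.0% and 9.23% of those in cluster 2. Both lay within the span of the pericyte markers in the same cells (2.89% to 38.6% and 2.33% to 37.0%). The part of free RNA in the cluster 0 ratio was not tested. Clusters 5 and 6 had ratios of 0.335 (0.168 to 0.631) and 0.442 (0.209 to 0.875) on 39 and 34 control UMIs. In cluster 4 the ratio was 0.603 (0.472 to 0.766). Control *Ednra* in clusters 4, 5 and 6 was at 22.8%, 11.6% and 13.8% of its level in cluster 2. The LPS values were 16.5%, 4.66% and 7.32%. All lay within the span of the pericyte markers in the same cells. In control cells of clusters 4 and 5 that span was wide, 8.64% to 190% and 2.76% to 102%, with *Mcam* at its top, so this says little there. Against cluster 0, control *Ednra* in clusters 4, 5 and 6 was at 99.3%, 50.5% and 60.02%, where fibroblast markers reached up to 33.2%, 33.2% and 42.6%. In LPS it was at 179%, 50.5% and 79.3%, where these markers reached up to 30.8%, 43.8% and 35.8%. The part of free RNA in the ratios of these clusters was not tested. Cluster 2 held 21.3% of the control and 35.8% of the LPS UMIs of *Ednra*, and the fibroblasts of cluster 0 held 47.2% and 29.0%. The thinned shares in cluster 2 were 20.6% in control and 17.8% in LPS, a difference of -2.83 percentage points (-5.90 to 0.209). In the macrophages, a type taken to lack the receptor, they were 2.14% and 1.03%, at medians of 8846 and 6900 UMIs a cell, compared with 6854 and 5082 in cluster 2. Unthinned, 39.4% and 28.9% of the cells of cluster 2 had a UMI. The difference of shares in cluster 2 was -3.86 percentage points (-6.26 to -1.51) at 1500 UMIs per cell and -5.59 (-9.74 to -1.35) at 5000.

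*Ednrb* (ENSRNOG00000010997) encodes the ETB receptor, which on endothelium clears endothelin-1 and leads to nitric oxide release and which is also found on mural cells and neural crest derivatives. It went in opposite directions in the clusters where it was highest. In cluster 2 it was at 46.6 CPM (42.3 to 51.1) in control and 26.2 CPM (22.8 to 29.9) in LPS, a ratio of 0.563 (0.476 to 0.663). In cluster 4 it was at 22.4 CPM (19.7 to 25.3) in control and 35.1 CPM (31.5 to 39.1) in LPS, a ratio of 1.57 (1.33 to 1.86). The order of the clusters therefore differed between the libraries, with cluster 2 above cluster 4 in control and below it in LPS, and in both cases the intervals did not overlap. The other endothelial cluster, 5, had 14.8 and 12.5 CPM and a ratio of 0.845 (0.580 to 1.23). Thinned shares of cells with a UMI were 13.3% and 7.17% in cluster 2 and 5.95% and 10.6% in cluster 4. In cluster 3, a class with little *Ednrb*, they were 0.718% and 0.648%, at medians of 7526 and 5269 UMIs a cell, compared with 12499 and 9972 in cluster 4. Unthinned, the shares were 24.6% and 12.1% in cluster 2 and 23.2% and 27.9% in cluster 4. *Ednra* and *Ednrb* were seen together in 3.54% of the thinned control cells of cluster 2.

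*Adm* (ENSRNOG00000027030) encodes adrenomedullin, a vasodilator that tightens the endothelial barrier. It was higher in LPS in each of the 10 clusters where it was read, with intervals of the ratio that all lie above 1. Its level was highest in cluster 4, at 248 CPM (239 to 258) in control and 499 CPM (485 to 513) in LPS, a ratio of 2.01 (1.92 to 2.11). In cluster 5 it was at 63.5 CPM (56.2 to 71.6) and 310 CPM (294 to 326), a ratio of 4.87 (4.28 to 5.57), the largest of the 10. The fibroblasts of cluster 0 held 50.6% of its control and 49.99% of its LPS UMIs and had 64.3 and 146 CPM, a ratio of 2.28 (2.21 to 2.35). Among the other clusters the ratios ran from 1.64 in the macrophages (34.0 to 55.9 CPM) to 3.42 in cluster 8 (13 and 42 UMIs). Control *Adm* was therefore at about the same level in clusters 0 and 5, with overlapping intervals, and in LPS cluster 5 stood apart. In the control cells of cluster 5, 1 cell held 33 of the 270 UMIs, and in the LPS cells the highest cell held 28 of 1409.

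Shares of cells told the same of *Adm*. In cluster 4 the thinned share with a UMI was 46.6% (42.9 to 50.3) in control and 69.1% (65.8 to 72.3) in LPS. In cluster 5 the share was 14.3% (10.8 to 18.4) in control and 50.7% (45.9 to 55.5) in LPS. Unthinned, these shares were 80.5% and 90.4% in cluster 4 and 34.3% and 76.7% in cluster 5. No cluster lacked *Adm* and could stand for background. The lowest thinned shares, 4.29% and 3.70%, were in cluster 8, whose cells had medians of 14882 and 11801 UMIs, and on 70 and 81 cells no order is read from them. The smaller levels were set beside the fibroblast markers. In clusters 2, 3 and 6 control *Adm* was at 70.3%, 43.5% and 52.9% of its level in cluster 0, where 8 fibroblast markers reached up to 76.9%, 46.8% and 42.6% of theirs. In LPS *Adm* was at 55.1%, 40.6% and 38.2%, where these markers reached up to 77.7%, 53.2% and 35.8%. *Adm* in cluster 6 was thus above these markers in both libraries, in LPS by a small margin on 139 UMIs. Against cluster 4, *Adm* in cluster 6 was at 13.7% in control and 11.2% in LPS. Both values lay within the span of the endothelial markers in the same cells (4.18% to 14.3% and 4.61% to 28.9%). The part of free RNA in the ratios of clusters 2, 3 and 6 was not tested. In clusters 4 and 5 *Adm* was at 386% and 98.8% of the level in cluster 0, above the fibroblast markers, which reached at most 33.2% there.

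*Calcrl* (ENSRNOG00000054695) encodes the receptor that binds adrenomedullin together with an accessory protein. Its level in cluster 4 was 40.8 CPM (37.1 to 44.7) in control and 42.7 CPM (38.7 to 47.0) in LPS, a ratio of 1.05 (0.915 to 1.20). In cluster 2 it was at 22.8 and 16.9 CPM, a ratio of 0.740 (0.594 to 0.919), where 2580 of 10449 genes had a lower ratio. In cluster 0 the levels were 8.96 and 11.1 CPM, a ratio of 1.24 (1.13 to 1.37). In the macrophages it had 29 UMIs in control and 47 in LPS, levels of 9.31 CPM (6.24 to 13.4) and 18.9 CPM (13.9 to 25.1) and a ratio of 2.03 (1.25 to 3.35). Scaling by the median ratio of the genes with at least 50 UMIs in both libraries shifts the log2 scale by 0.1 or more only in that cluster, where the log2 of this median was -0.19, and over all cells, where it was -0.10.

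*Ramp2* (ENSRNOG00000020415) encodes the accessory protein that turns the *Calcrl* product into an adrenomedullin receptor and is needed for vessel formation. It was lower after LPS in both endothelial clusters, with 615 CPM (601 to 630) in control and 400 CPM (387 to 412) in LPS in cluster 4 and, in cluster 5, 687 CPM (662 to 713) and 354 CPM (337 to 371). The ratios were 0.649 (0.624 to 0.676) and 0.515 (0.484 to 0.547), neither past 2-fold. Over both libraries these clusters were equal, at 515 CPM each. In the fibroblasts of cluster 0 *Ramp2* went the other way, from 75.0 to 88.7 CPM, a ratio of 1.18 (1.14 to 1.22). It was lower in clusters 2 and 3, with ratios of 0.818 (0.717 to 0.932) and 0.700 (0.574 to 0.850). Of the genes read there, 3677 of 10449 and 1006 of 9943 had a lower ratio than *Ramp2*. Its control and LPS levels were 9.44% and 11.9% of those in cluster 4 in cluster 2, and 6.86% and 7.39% in cluster 3. All 4 values lay within the span of the endothelial markers in the same cells, and the part of free RNA in these ratios was not tested. The fibroblasts of cluster 0 held 35.4% of the control and 46.0% of the LPS UMIs. The thinned share in cluster 4 was 78.8% in control and 62.6% in LPS, against 8.90% and 9.31% of the macrophages. Unthinned, the shares in cluster 4 were 96.1% and 86.3%. In the endothelial clusters, then, the ligand gene was higher and the accessory protein gene lower in LPS. The receptor gene *Calcrl* was close in both libraries in cluster 4. In cluster 5 it had 63 UMIs in each library and a ratio of 0.934 (0.648 to 1.35), so no difference was detectable at this depth. The plot of shares shows this in single cells.

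**Figure D3:**
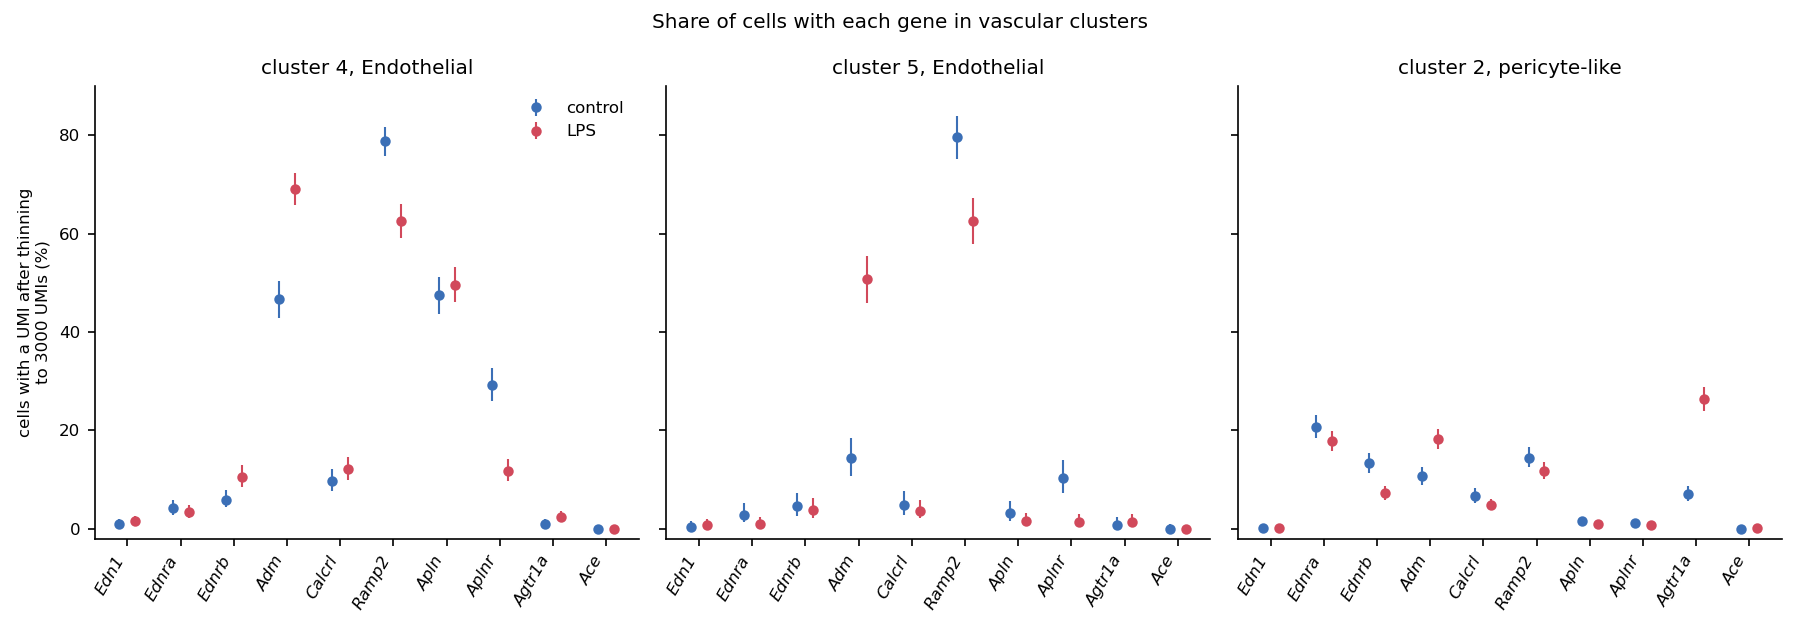
Percent of cells with a UMI of each of the 10 genes after thinning to 3000 UMIs per cell, in the control (blue) and LPS (red) cells of clusters 4, 5 and 2. Bars are 95% Clopper-Pearson intervals. In cluster 5 *Adm* goes from 14.3% to 50.7% and *Ramp2* from 79.7% to 62.6%, and in cluster 2 *Agtr1a* goes from 7.07% to 26.3%.

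Most endothelial cells in which *Calcrl* was seen also held *Ramp2*, as did most of those in which it was not. Of the thinned control cells of cluster 4 with a *Calcrl* UMI, 80.0% (68.7 to 88.6) also had *Ramp2*, against 78.7% (75.4 to 81.8) of those without *Calcrl*. In LPS the shares were 69.8% (59.6 to 78.7) and 61.6% (57.9 to 65.2). The intervals overlap in both libraries, so at this depth detection of one was not seen to go with detection of the other. In cluster 5 the shares were 88.2% and 79.3% in control, on 17 cells with *Calcrl*, and 62.5% and 62.6% in LPS, on 16 such cells.

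*Apln* (ENSRNOG00000003984) encodes apelin, a peptide of sprouting endothelium. It lay mostly in cluster 4, which held 77.7% of its control and 83.7% of its LPS UMIs. The level there was 344 CPM (333 to 355) in control and 378 CPM (366 to 391) in LPS, a ratio of 1.10 (1.05 to 1.15). Thinned shares of 47.4% and 49.6% differed by 2.18 percentage points (-2.85 to 7.19). The macrophages, which should lack *Apln*, had 1.07% and 0.690%. Unthinned, the shares were 71.0% and 68.9% in cluster 4 and 5.69% and 3.78% in the macrophages. In the other clusters with at least 50 cells per library *Apln* was at 0.870% to 4.53% of its level in cluster 4. The second endothelial cluster was among them, with 15.5 and 12.96 CPM, 4.52% and 3.43% of cluster 4, although its 7 endothelial markers were at 49.6% or more of theirs in control and 31.1% or more in LPS. Elsewhere the *Apln* level lay within or below the span of the endothelial markers in the same cells, also in cluster 7, with 20 control and 5 LPS UMIs. Single cells held a large part of these counts in places. In the macrophages 1 cell held 13 of 32 control UMIs and 1 cell held 12 of 23 LPS UMIs. In cluster 7 a single control cell held 8 of the 20. The part of free RNA or doublets in these levels was not tested.

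*Aplnr* (ENSRNOG00000009227) encodes the apelin receptor, a mark of venous and sprouting endothelium. It was lower after LPS in each of the 7 clusters where it was read. In cluster 4 it had 1960 UMIs in control and 502 in LPS, levels of 176 CPM (168 to 184) and 51.6 CPM (47.2 to 56.3), so that control was 3.42 times higher. In cluster 5 the levels were 37.7 CPM (32.04 to 44.0) and 8.35 CPM (5.91 to 11.5), 4.51 times higher in control. Only 130 of the 10942 genes read in cluster 4, and 53 of the 9449 read in cluster 5, had a lower ratio. The thinned share with a UMI was 29.2% in control and 11.8% in LPS in cluster 4, and 10.3% and 1.38% in cluster 5. The macrophages had 2.85% and 0.345%, and the LPS share in cluster 5 had an interval (0.507 to 2.97) that overlaps that of the macrophages (0.00873 to 1.91). Unthinned, the shares were 58.6% and 28.3% in cluster 4. Outside the endothelial clusters control *Aplnr* stood at 2.48% to 5.44% of its level in cluster 4, within the span of the endothelial markers there. The part of free RNA in its lower level in the LPS cells of those clusters was not tested. Ligand and receptor of the apelin system thus differed in cluster 4, where the ligand was close in both libraries and the receptor was not.

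*Lyve1*, *Flt4* and *Prox1*, the 3 lymphatic markers, were also looked at in these cells. Their summed level was 193 CPM in control and 387 CPM in LPS in cluster 4, and 135 and 417 CPM in cluster 5, nearly all of it *Lyve1* (169 to 366 and 120 to 408 CPM), whereas *Prox1* was at 1.71 and 1.13 CPM in cluster 4 and at 3.77 and 2.64 CPM in cluster 5. The summed level of the 7 endothelial markers was 1892 and 1750 CPM in cluster 4 and 1542 and 1260 CPM in cluster 5. Their part in the *Adm*, *Ramp2* and *Aplnr* values was not tested.

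Within cluster 4, *Adm* was seen in a larger share of the cells with *Apln* than of the cells without it. This pair and those with *Aplnr* and of *Adm* with *Calcrl* were chosen after values had been seen. Of the thinned control cells with *Apln*, 62.7% (57.3 to 67.8) had *Adm*, against 32.1% (27.4 to 37.1) of the cells without. In LPS the shares were 75.7% (71.2 to 79.8) and 62.6% (57.7 to 67.3), with a smaller gap, since *Adm* was seen in more of the cells that lacked *Apln*. The order held with 1500 UMIs per cell (49.8% and 20.5% in control, 57.3% and 44.7% in LPS) and without thinning (88.1% and 61.9%, and 95.8% and 78.5%). *Aplnr* was in 24.5% (20.03 to 29.4) of the control cells with *Apln* and in 33.4% (28.7 to 38.4) of those without. Its LPS shares were 11.6% and 11.97%. *Calcrl* was in 9.20% of the control cells with *Adm* and in 10.1% of those without.

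**Figure D4:**
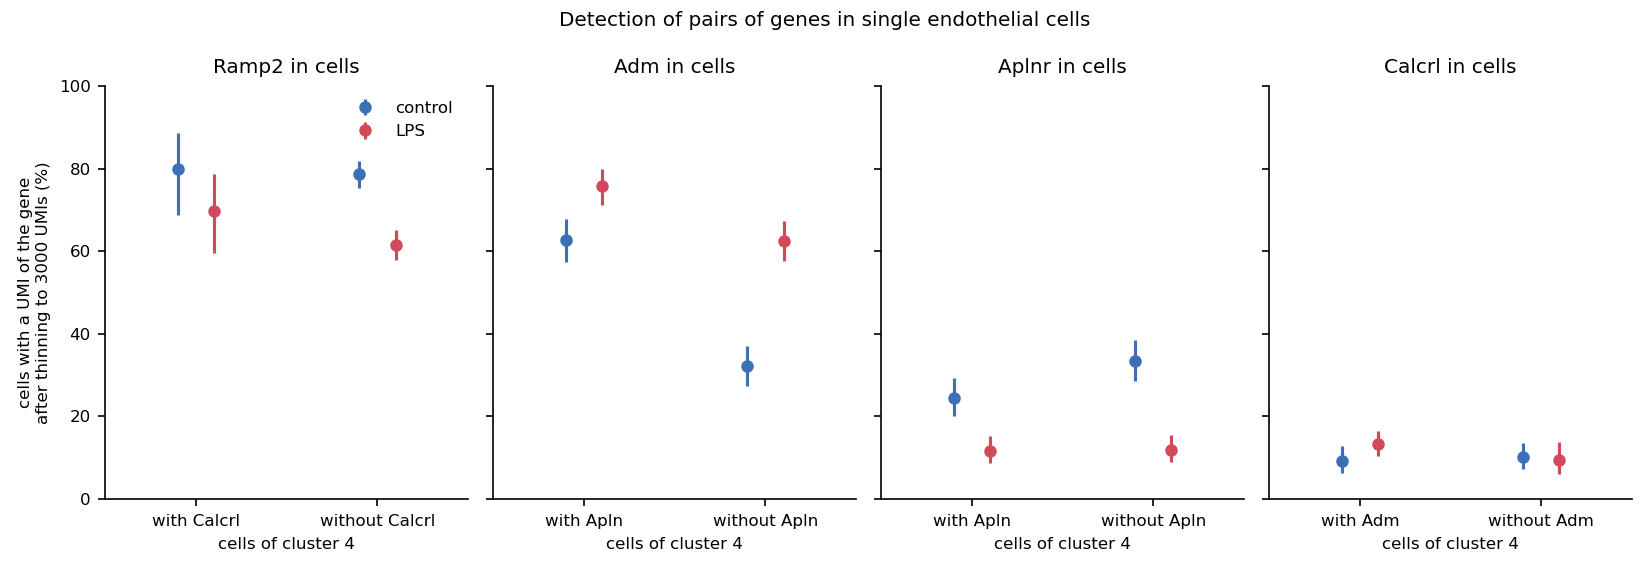
Percent of cells of cluster 4 with a UMI of *Ramp2*, *Adm*, *Aplnr* or *Calcrl* (1 panel each) among cells with and without a UMI of the partner gene named under the axis, after thinning to 3000 UMIs, in control (blue) and LPS (red). Bars are 95% Clopper-Pearson intervals. *Adm* is more frequent in cells with *Apln*, 62.7% against 32.1% in control, and *Ramp2* is about as frequent with *Calcrl* as without, 80.0% against 78.7%.

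*Agtr1a* (ENSRNOG00000018346) encodes the type 1 angiotensin II receptor, which mediates constriction and sodium retention. It was higher after LPS in clusters 0 to 5, and among the clusters with at least 20 of its UMIs its level was highest in the pericyte-like cells in both libraries. Its ratios in clusters 6, 7 and 8 were 1.62 (0.822 to 3.25), 1.20 (0.591 to 2.48) and 1.89 (0.946 to 3.93), so no difference was detectable there. In cluster 2 it had 238 UMIs in control and 880 in LPS, levels of 25.4 CPM (22.3 to 28.9) and 105 CPM (98.0 to 112) and a ratio of 4.12 (3.57 to 4.78). Only 99 of 10449 genes had a higher ratio there. The share of thinned cells went from 7.07% (5.68 to 8.68) to 26.3% (24.0 to 28.7), and unthinned it was 16.9% and 38.7%. The endothelial cells of cluster 5, where its level was not above the span of the fibroblast markers, gave 0.857% and 1.38% after thinning, at medians of 10172 and 8998 UMIs against 6854 and 5082 in cluster 2. The 880 UMIs were spread over 550 cells, with at most 9 in 1 cell. *Ednra*, the other constrictor receptor of these cells, had a ratio of 0.833 there, and the summed level of the 7 pericyte markers was 1314 CPM in control and 1067 CPM in LPS. Pericyte-like cells of the LPS library with *Agtr1a* had *Ednra* in 15.0% (11.5 to 19.1) of cases and those without it in 18.8% (16.4 to 21.3).

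The fibroblasts held most of the *Agtr1a* UMIs, 57.6% in control and 51.2% in LPS in cluster 0 alone, at 8.33 and 20.3 CPM, a ratio of 2.44 (2.23 to 2.66). These levels were 32.8% and 19.4% of those in cluster 2. Both lay within the span of the pericyte markers in the same cells (2.89% to 38.6% and 2.33% to 37.0%), and the part of free RNA in this ratio was not tested. In cluster 1 the ratio was 1.83 (1.52 to 2.22). In cluster 4 the levels were 4.22 and 10.5 CPM, 50.7% and 51.6% of those in cluster 0, where fibroblast markers reached up to 33.2% and 30.8% of theirs. Against cluster 2 they were at 16.6% and 10.0%, within the span of the pericyte markers (8.64% to 190% in control and 5.69% to 230% in LPS). The part of free RNA in the cluster 4 ratio was not tested. In cluster 3 (3.11 and 8.58 CPM) and cluster 5 (1.65 and 7.25 CPM) *Agtr1a* was at 37.3% and 42.2%, and at 19.8% and 35.7%, of its level in cluster 0. These values lay within or below the span of the fibroblast markers. The ratios of these clusters, 2.76 and 4.402, are given with that limit, and the part of free RNA in them was not tested. The gene of the other rat type 1 receptor, *Agtr1b*, had fewer than 20 UMIs in every cluster, and how reads that match both paralogs were counted is not given in the sources used here.

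*Ace* (ENSRNOG00000062101) encodes angiotensin-converting enzyme, which forms angiotensin II and breaks down bradykinin. It was the scarcest of the 10, with 59 UMIs in all control cells and 10 in all LPS cells, levels of 0.387 CPM (0.294 to 0.499) and 0.0784 CPM (0.0376 to 0.144). The ratio was 0.203 (0.0925 to 0.400), where 9.85% of the genes read over all cells were at least 2-fold lower. Cluster 0 held 36 of the control and 7 of the LPS UMIs. In cluster 4 it had 5 UMIs in control and 0 in LPS, where none counted still leaves room for 0.308 CPM (3 UMIs). The endothelial cells of cluster 5 had 0 UMIs in either library, where the same 3 UMIs make 0.706 CPM in control and 0.659 CPM in LPS and the upper ends of the 95% intervals are 0.868 and 0.811 CPM.

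Other genes of the same systems were taken from a list of 30, of which 27 were in the matrices. In cluster 0, 18 of them were read, with *Bdkrb1* at least 2-fold higher and *Ramp1*, *Gpr182* and *Agt* at least 2-fold lower, a median log2 ratio of -0.32 against -0.15 over all genes read there, of which 3.62% were at least 2-fold higher and 11.2% lower. In cluster 4, 12 were read, 0 higher and 2 lower (*Gpr182* and *Anpep*), with a median of -0.35 against -0.10 (2.95% and 6.27% of all genes higher and lower). In cluster 5, 12 were read, 0 higher and 2 lower (*Ramp3* and *Gpr182*), with a median of -0.38 against -0.07 (4.74% and 6.48%). Of the 15 read in cluster 2, 0 were higher and 3 lower (*Ece2*, *Ramp1* and *Gpr182*), with a median of -0.54 against -0.14 (3.01% and 6.66%). *Ece2* was read there on 19 control and 5 LPS UMIs. The part of free RNA in the ratios of *Gpr182* in clusters 0 and 2 was not tested.

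**Figure D5:**
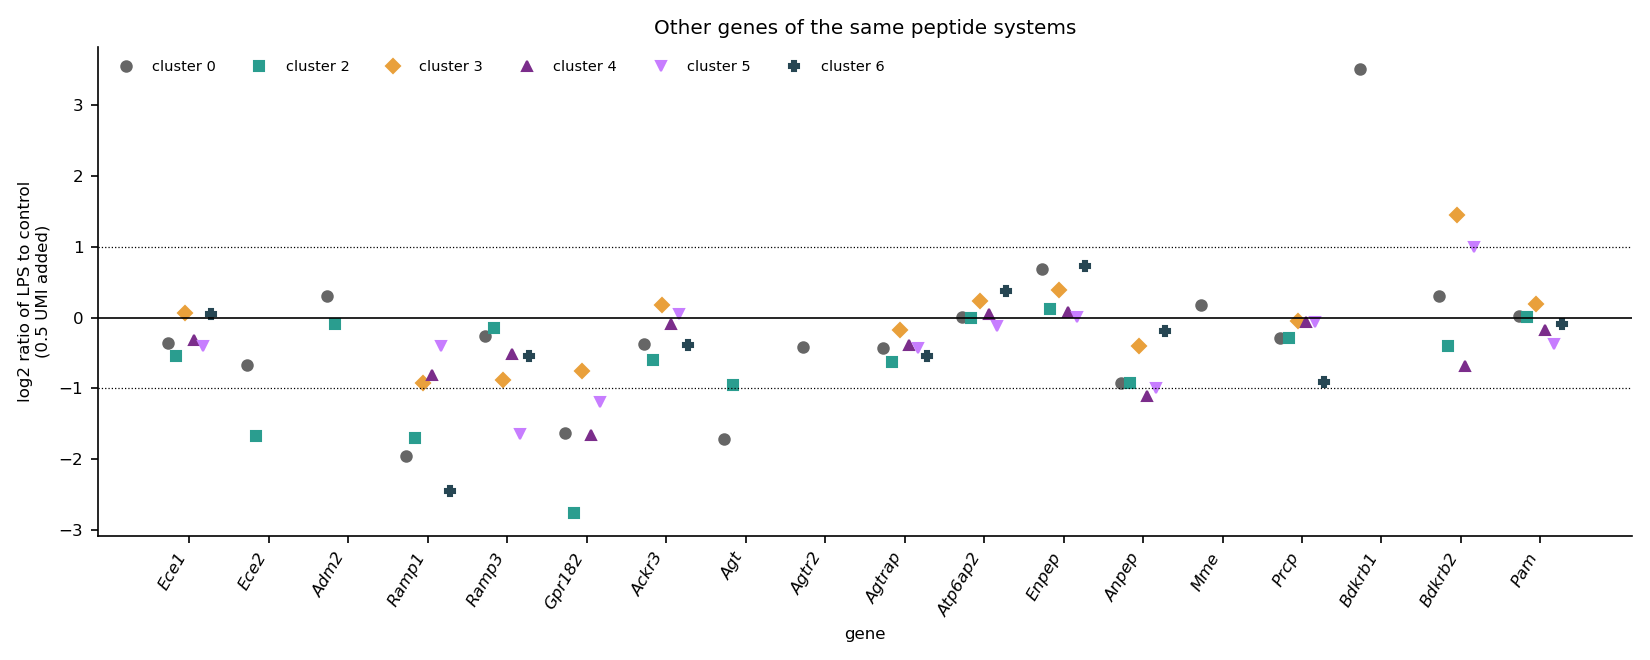
Log2 ratio of LPS to control (0.5 UMI added) for other genes of the peptide systems in clusters 0, 2, 3, 4, 5 and 6, for genes with at least 20 UMIs in the cluster; dotted lines mark 2-fold. *Ramp1* and *Gpr182* are below 0 in each of these clusters where they were read, and *Bdkrb1* in cluster 0 is the highest point, on 3 and 32 UMIs.

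Several of these genes act directly on the products described above. *Ramp1*, the accessory protein that makes the *Calcrl* product a receptor of calcitonin gene-related peptide, was at 49.5 and 12.7 CPM in cluster 0, at 55.6 and 17.0 CPM in cluster 2 and at 31.8 and 5.63 CPM in the macrophages, whereas in cluster 5, where it was highest, it was at 148 and 112 CPM. *Ramp3*, the third of the family, was at 13.9 and 4.39 CPM in cluster 5. *Gpr182*, an atypical receptor first described as an adrenomedullin receptor, was at 42.6 and 13.5 CPM in cluster 4 and at 95.5 and 42.0 CPM in cluster 5. None of the accessory protein genes was at least 2-fold higher where read in clusters 0 to 9. Only 2.2% to 5.04% of all genes were in these clusters, so this is given as a description. *Ramp2* had a ratio of 1.18 (1.14 to 1.22) in cluster 0.

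Of the endothelin pathway, *Ece1*, which cleaves the endothelin-1 precursor, was at 98.3 and 79.3 CPM in cluster 4 and at 139 and 105 CPM in cluster 5. *Edn2* and *Edn3* had fewer than 20 UMIs in every cluster. *Pam*, the enzyme that amidates adrenomedullin, was at 467 and 535 CPM in cluster 3 and at 195 and 173 CPM in cluster 4. Of the renin-angiotensin system, *Agt*, the precursor of angiotensin II, went from 5.37 to 1.63 CPM in cluster 0. *Enpep*, the aminopeptidase that degrades angiotensin II, was at 12.4 and 20.1 CPM in cluster 0, a ratio of 1.61. *Mas1* had fewer than 20 UMIs in every cluster. Of the bradykinin receptors, *Bdkrb1*, the inducible one, had 3 control and 32 LPS UMIs in cluster 0. *Bdkrb2* went from 5.65 to 15.5 CPM in cluster 3, where it was 1 of 12 listed genes read and the only one at least 2-fold higher. Of all genes read in cluster 3, 2.2% were at least 2-fold higher.

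The genes whose log2(CPM + 1) followed a member most closely over clusters 0 to 9 in both libraries (20 points that share libraries, depth and free RNA) are given as a description. *Ramp2* was followed most by *Egfl7* (Pearson r = 0.95), *Gimap8* and *RT1-T24-4*, *Apln* by *Lrg1* (r = 0.95), *Clec1a* and *Cldn5*, and *Aplnr* by *Cyp1a1* (r = 0.93), *Kctd18* and *Cldn5*. *Adm* was followed by *Meox1* (r = 0.90), *Pde4b* and *Chi3l1* and *Calcrl* by *Tp53i11* (r = 0.86), *Sirt2* and *Tcf15*. *Ednra* was nearest to *Mgst3* (r = 0.90), *Ncald* and *Nr1d1*, *Ednrb* to *Rasd1* (r = 0.90), *Tbc1d9b* and *Tmem115*, and *Agtr1a* to *Tnfrsf9* (r = 0.86), *S100a5* and *Foxs1*. *Edn1* and *Ace* had fewer than 500 UMIs and were left out.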

How the data were processed

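Cardiac cells in 1 control and 1 LPS library were profiled with the 10X Genomics 3′ v2 kit. The authors deposited raw counts of UMIs per gene and cell, with no normalization, and a cluster for each cell. The submitters' processing notes name Cell Ranger 2.2.0 and Seurat 2.3.4, and the genome build and annotation behind the counts are not given in the sources used here, so the only coordinates are those of the RefSeq promoter windows, on GRCr8. Cells without a cluster (2 control, 8 LPS) were left out.

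UMIs were summed per cluster and library with pandas 2.3.3, scipy 1.17.1 and numpy 2.4.6 under Python 3.11.15 and expressed per 1000000 UMIs of the cluster. Intervals (95%) are exact Poisson for levels, exact conditional for ratios, Clopper-Pearson for shares and Newcombe's for differences of shares, and take in counting error alone, and where no UMI was counted 3 UMIs were taken as the limit. Ratios were read with at least 20 UMIs in a cluster, and levels were ordered among clusters with at least 50 cells in each library. Thinning drew 3000 UMIs per cell without replacement. The scripts were tested on simulated data. No test between conditions was made, as each had 1 library.

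The named genes were the 10 members, the listed genes of their peptide systems with at least 20 UMIs in a cluster, and, for each member with at least 500 UMIs, the 3 non-member genes of at least 500 UMIs with the highest Pearson correlation over clusters. The members, the lists and the marker genes were chosen with earlier results of these data known. *Pecam1*, *Ttn*, *Apela*, *Kng2* and *Kng2l1* were not among the symbols, and some genes of the written lists are not reported here. The marker lists used beside a result were those for endothelial cells (7 genes found), fibroblasts (8), pericytes (7) and lymphatic vessels (3). The smooth muscle list (4) and single genes of the macrophage, ICA and Schwann cell lists were used to describe clusters. Alternatives were other scalings, weights, filters on cells, depths of thinning, minimums and folds.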

Additional observations from a re-analysis of the deposited data

Results flagged for a closer look

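*Ednrb*, *Calcrl*, *Ramp2* and *Apln* differed in opposite directions between 2 clusters, with counting intervals of the ratio on either side of 1. In each case the difference between the clusters was not tested, since each condition had 1 library. *Ednrb* had a ratio of LPS to control of 1.57 (1.33 to 1.86) in cluster 4 and of 0.447 (0.194 to 0.949) in cluster 6, the latter on 28 and 10 UMIs. Its level in cluster 6 was 19.3% (control) and 15.4% (LPS) of that in cluster 2, within the span of the pericyte markers in the same cells. *Calcrl* had 2.03 (1.25 to 3.35) in cluster 6, on 29 and 47 UMIs, and 0.740 (0.594 to 0.919) in cluster 2. *Ramp2* had 1.18 (1.14 to 1.22) in cluster 0 and 0.515 (0.484 to 0.547) in cluster 5. *Apln* had 1.10 (1.05 to 1.15) in cluster 4 and 0.240 (0.0704 to 0.659) in cluster 7, where its 20 and 5 UMIs lie within or below the levels that endothelial markers reached in the same cells. Of the 20 control UMIs in cluster 7, a single cell held 8, which the counting interval does not take in.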

How the results depend on the processing

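No paired analysis was possible because there was 1 library per condition. Of 641 values of 119 results under the alternatives, 566 stayed within the counting error of the reported value, and 75 moved by more. Of the 21 that changed sign, 0 belonged to a result whose reported interval lay on one side of no difference. Leaving out cells with over 10% mitochondrial UMIs kept only 55 of 836 control and 85 of 929 LPS cells of cluster 3. The medians in that cluster were 17.9% and 17.3% mitochondrial UMIs. In cluster 9 the same filter kept 26 of 66 and 22 of 58 cells. In log2 ratios, without the 8% of cells that had the highest UMI totals the values were 0.92 for *Adm*, 0.037 for *Apln* and -0.72 for *Ramp2* in cluster 4. Thinning to 3000 UMIs gave 0.31 for *Calcrl* and -0.71 for *Ramp2*, and the mean of the cells' own CPM gave -0.71 for *Ramp2*. Differences of shares (LPS minus control, in percentage points) moved with depth, growing for some genes and shrinking for others, and that of *Calcrl* in cluster 4 went from 2.38 (-0.779 to 5.51) as reported to -6.04 (-10.8 to -1.23) without thinning. In cluster 2 they were -10.5 without thinning for *Ednra*, -2.20 at 1500 UMIs and -12.5 without thinning for *Ednrb*, and 9.62 at 1500 and 24.9 at 5000 UMIs for *Agtr1a*. In cluster 4 they were 9.90 for *Adm*, -9.86 for *Ramp2* and -30.3 for *Aplnr* without thinning, -2.76 for *Calcrl* and -25.3 for *Aplnr* at 5000 UMIs and -12.2 for *Aplnr* at 1500 UMIs. Of cells with *Calcrl*, 56.4% and 98.6% (control) and 40.7% and 94.2% (LPS) had *Ramp2* in cluster 4 at 1500 UMIs and without thinning, and 57.1% and 100% (control) and 27.3% and 92% (LPS) in cluster 5. With a threshold of 1.5-fold, 655 genes were higher and 1802 lower in cluster 2 and 687 and 1820 in cluster 4, with 3-fold 147 and 206, and 154 and 190, and with a minimum of 50 UMIs 372 and 382 genes were at least 2-fold lower. *Edn1* and *Ace*, and all 10 genes in cluster 10, were limited by depth.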

Other observations

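*Ednrb* was also present in cluster 10, which held 16 control and 26 LPS cells and was led by *Sox10* and *S100b*, both Schwann cell markers. It had 7 UMIs in control and 4 in LPS, or 48.7 CPM (19.6 to 100) and 25.1 CPM (6.84 to 64.2), and was among the cluster's 100 leading genes, so its level there is a description of how the cluster was set apart.

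In cluster 3, cells were split by whether they held a UMI of *Dbh*. *Ednra* was at 59.5 CPM (47.7 to 73.4) in the 156 control cells with *Dbh* and at 52.5 CPM (46.7 to 58.9) in the 680 without, and at 59.4 CPM (43.0 to 80.1) and 48.6 CPM (42.5 to 55.2) in LPS, so no difference was detectable at this depth. *Adm* was at 31.5 and 27.1 CPM in control and at 49.8 and 61.0 CPM in LPS cells with and without *Dbh*. *Apln* was at 21.2 CPM in the control cells with *Dbh* against 6.94 CPM in those without, but 1 cell held 13 of its 31 UMIs, and without that cell's *Apln* UMIs the level was 12.3 CPM. In LPS the levels were 8.29 and 10.5 CPM.

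Unclustered cells (2 in control, 8 in LPS) held 1 and 2 UMIs of the 10 genes.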
